A study of Mus musculus with 28 samples.

Results

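The T cell receptor (TCR) complex and its coreceptors were followed through 9 genes of the 55341 listed, Cd3d, Cd3e, Cd3g, Cd247, Cd8a, Cd8b1, Cd4, Lck and Zap70, chosen by name and found in every tumor. RNA was measured by bulk RNAseq in 28 whole subcutaneous AB1-HA tumors of female BALB/c mice aged 8 to 10 weeks, taken 7 days after treatment began. Mice received PBS (n = 4), immune checkpoint blockade (ICB) with 100 µg doses of antibody, anti-CTLA-4 given 1 time and anti-PD-L1 3 times (n = 5), 5-FU at 75 mg/kg (n = 5), cisplatin at 6 mg/kg (n = 4), 5-FU with ICB (5-FU+ICB, n = 5) or cisplatin with ICB (cisplatin+ICB, n = 5), the combinations at the same doses. Every tumor grew from AB1-HA, a single mouse mesothelioma line, so the spread between tumors is that between mice carrying the same line, and the RNA is a mixture of tumor cells, stroma and leukocytes.

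On a T cell, the variable TCR chains recognise a peptide held by an MHC molecule but cannot signal by themselves. The CD3 gamma, delta and epsilon chains and the zeta chain (Cd247) carry the signalling motifs, CD8 and CD4 bind the MHC molecule and bring the kinase LCK to the complex, and the phosphorylated motifs recruit the kinase ZAP-70. Cytotoxic T cells carry CD8, mostly as a pair of an alpha (Cd8a) and a beta (Cd8b1) chain, and helper and regulatory T cells carry CD4. The CD3 chains mark T cells in general, whereas CD8 alpha and CD4 are also carried by some dendritic cells, and CD3 zeta and LCK are used by NK cells too. In RNA from whole tumors, fewer cells of a type and less RNA per cell cannot be told apart.

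The CD3 genes lie together on chromosome 9 of GRCm38, Cd3g at chr9:44969572-44980431 on the minus strand, Cd3d at chr9:44981786-44987339 on the plus strand and Cd3e at chr9:44998740-45009627 on the minus strand. The start sites of Cd3g and Cd3d, which are read away from each other, are 1355 bases apart. Cd8b1 (chr6:71322788-71337494) and Cd8a (chr6:71373427-71379173) are neighbours on the plus strand of chromosome 6, with 35933 bases between the end of the first and the start of the second, and Cd4 lies far from them on the same chromosome (chr6:124864692-124888221, minus strand). Lck is at chr4:129548344-129573641 on the minus strand, Cd247 at chr1:165788681-165877277 and Zap70 at chr1:36761798-36782818, both on the plus strand. RefSeq promoter windows of GRCm38.p6 were at hand for 7 of the 9 genes, some with more than 1 start site, 10 windows in all. The 250 bases before the start site, 5′ to 3′ on the gene's own strand, are shown for the CD3 cluster and for Cd8a, because these genes moved together in the tumors while lying at 2 separate loci, and capitals mark the ETS motif described after them, which the Cd3g and Cd8a windows do not hold.
Cd3g, chr9:44980432-44980681, minus strand: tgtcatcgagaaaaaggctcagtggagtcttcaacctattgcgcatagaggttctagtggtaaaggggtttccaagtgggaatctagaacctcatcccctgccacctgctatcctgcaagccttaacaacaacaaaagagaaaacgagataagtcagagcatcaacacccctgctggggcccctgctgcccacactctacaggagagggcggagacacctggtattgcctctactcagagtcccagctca
Cd3d, chr9:44981536-44981785, plus strand: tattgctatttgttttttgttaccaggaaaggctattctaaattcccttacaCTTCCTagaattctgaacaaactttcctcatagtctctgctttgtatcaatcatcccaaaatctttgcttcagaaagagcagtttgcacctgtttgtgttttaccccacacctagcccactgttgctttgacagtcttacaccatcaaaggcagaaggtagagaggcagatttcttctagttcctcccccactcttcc
Cd3e, chr9:45009612-45009861, minus strand: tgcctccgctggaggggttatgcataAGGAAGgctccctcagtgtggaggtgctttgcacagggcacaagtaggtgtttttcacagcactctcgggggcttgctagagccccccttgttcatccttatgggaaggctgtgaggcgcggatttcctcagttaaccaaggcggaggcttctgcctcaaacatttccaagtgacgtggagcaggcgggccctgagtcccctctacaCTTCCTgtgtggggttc
Cd8a, chr6:71373177-71373426, plus strand: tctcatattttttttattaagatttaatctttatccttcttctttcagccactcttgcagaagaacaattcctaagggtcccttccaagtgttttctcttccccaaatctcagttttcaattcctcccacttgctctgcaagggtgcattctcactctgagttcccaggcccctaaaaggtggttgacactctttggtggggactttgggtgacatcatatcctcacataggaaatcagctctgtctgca
The motif AGGAAG, bound by ETS family factors, was found on either strand in 7 of the 10 windows (Cd3d, Cd3e, Cd247, Lck and Zap70, 5 of the 7 genes), and in 29.5% of all 32851 windows of this length. The RUNX motif TGTGGT was in 2 of the 10 windows, 1 of Lck and 1 of Zap70, and in 14.0% of all windows. The E-box CAGCTG was in 0 of the 10 and in 13% of all. Both strands were searched for each motif, and none of the 3 is contained in another. A match here describes letters in a window and not a binding site.

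The libraries held between 23541733 and 33950805 estimated counts per tumor, and 3 counts, used as the floor of detection, came to at most 0.159 CPM (counts scaled to a common library size with edgeR's TMM method over all 28 tumors). The lowest count of a member in any tumor was 34, well over that floor, which covers counting error only. Some libraries stood apart from the rest. In 5-FU+ICB replicate 5 the mitochondrial share was 16.1%, and the summed level of 6 lymph node stroma and follicle markers led by Glycam1 was 1220 CPM, against at most 28.9 CPM in any other tumor. B cell markers (840 CPM), naive T cell markers (764 CPM) and skeletal muscle markers (4650 CPM) were at their highest there as well. Cisplatin+ICB replicate 1 had the lowest scaling factor (0.685), the lowest mitochondrial share (1.03%) and the highest sum of 5 mesothelial tumor cell markers, nearly all of it Msln (655 CPM, against 132 to 267 CPM in the rest of its group). Another 3 tumors did not have the members' level of the rest of their group, since 5-FU+ICB replicate 2 and cisplatin+ICB replicate 3 were low and 5-FU replicate 3 was high, and each fitted comparison of the members that holds one of these libraries is given with and without it. A gene was said to rise or fall when edgeR's quasi-likelihood test gave a Benjamini-Hochberg adjusted p-value under 0.05 over all genes tested and the absolute log2 fold change was over 0.5.

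T cell RNA was present but scarce in PBS tumors. The alpha chain constant segment Trac, which defines alpha-beta T cells, was between 4.73 and 5.48 CPM in the 4 PBS tumors. The CD3 genes were at 2.96 ± 1.81 CPM (Cd3d), 3.79 ± 0.659 CPM (Cd3e) and 4.46 ± 0.851 CPM (Cd3g) (mean ± SD, n = 4), and Cd247 was at 3.66 ± 0.683 CPM. Cd8a was at 5.23 ± 0.871 CPM, Cd8b1 at 3.76 ± 0.494 CPM and Cd4 at 6.97 ± 1.71 CPM. Zap70 was at 3.02 ± 0.856 CPM and Lck at 21.4 ± 8.89 CPM. Per kilobase of the longest coding transcript, which allows genes to be compared, Lck had the highest level of the 9 in PBS tumors with 9.79 ± 4.06 CPM per kb, followed by Cd3g with 4.35 ± 0.834, and Cd247 had the lowest with 1.24 ± 0.23. In ICB tumors the order per kilobase was another one, with Cd3g highest (63.9 ± 37.3 CPM per kb, n = 5), then Cd8b1 (40.7 ± 28.4), Cd8a (35.3 ± 15.3) and Lck (34.2 ± 11.8), values that overlap within their SD.

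Across the 6 groups the members had much the same order by mean CPM. 5-FU+ICB was the highest and ICB came next for all 9 members. Cisplatin+ICB followed and then 5-FU for 8 members, and the reverse for Cd4. PBS and cisplatin were the 2 lowest groups for all 9. Of the neighbours in that order, 5-FU+ICB and ICB, ICB and cisplatin+ICB, and PBS and cisplatin had no member whose difference passed the test, as given with each comparison. Cisplatin+ICB and 5-FU were not tested against each other. Over the 28 tumors the ratio of the highest to the lowest tumor was greatest for Cd8b1 (1.37 to 322 CPM, 234-fold) and smallest for Lck (12.3 to 266 CPM, 21.7-fold).

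**Figure D1:**
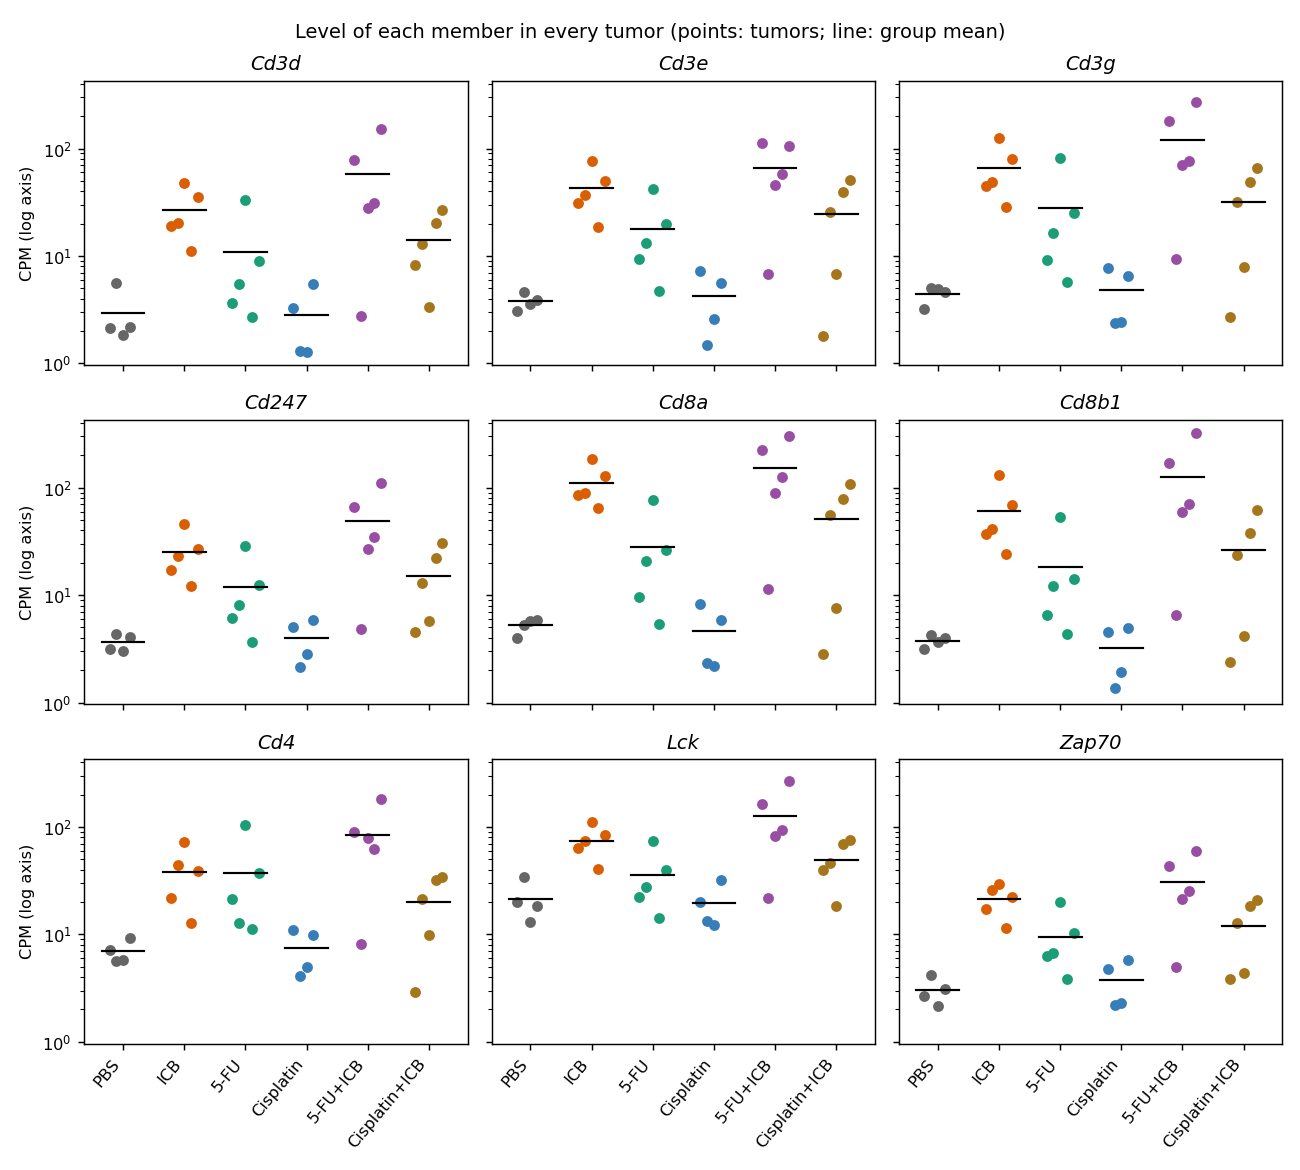
CPM of each of the 9 members (log axis) in the 28 tumors by treatment group, a point for each tumor and a line for the group mean. For Cd8a the 5 ICB tumors sit between 64.2 and 185 CPM, all above the 4 PBS tumors. On the log axis the 5-FU+ICB (11.4 to 304 CPM), 5-FU (5.41 to 76.6 CPM) and cisplatin+ICB (2.81 to 108 CPM) groups spread more widely.

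ICB against PBS asks what checkpoint blockade did on its own. All 9 members rose, with Cd8a the furthest and Lck the least. Cd8a, the alpha chain of the CD8 coreceptor, was at 85.5, 88.5, 185, 64.2 and 129 CPM in the 5 ICB tumors and at 3.97, 5.32, 5.75 and 5.88 CPM in the PBS tumors. Its lowest ICB tumor was far above its highest PBS tumor. The log2 fold change was 4.42 ± 0.84 (SE; adjusted p = 0.00101, edgeR). Cd8b1, the beta chain, was at 37.0, 41.7, 130, 24.4 and 68.8 CPM in ICB tumors against 3.12, 4.27, 3.65 and 3.99 CPM after PBS, a log2 fold change of 4.02 ± 0.94 (adjusted p = 0.00325). Cd4, the coreceptor of helper and regulatory T cells, was at 21.8, 44.5, 72.4, 12.7 and 38.9 CPM against 7.22, 5.66, 5.71 and 9.30 CPM. Its groups did not overlap either, but they lay closer together than those of Cd8a, and the log2 fold change was 2.47 ± 0.77 (adjusted p = 0.0161).

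The chains of the CD3 module rose by log2 fold changes of 3.17 ± 0.94 (Cd3d), 3.51 ± 0.72 (Cd3e), 3.89 ± 0.88 (Cd3g) and 2.79 ± 0.72 (Cd247), with adjusted p-values from 0.00156 to 0.0126. Cd3e was at 31.2, 37.2, 77.1, 18.6 and 49.8 CPM in ICB tumors and at 3.08, 4.64, 3.54 and 3.89 CPM after PBS. ICB replicate 3 was the highest and replicate 4 the lowest for these 4 chains. Zap70, the kinase recruited to the phosphorylated chains, rose by 2.82 ± 0.59 (adjusted p = 0.00182). Lck, which phosphorylates them, was at 63.6, 74.7, 111, 40.6 and 83.3 CPM against 20.2, 33.9, 13 and 18.5 CPM, a log2 fold change of 1.80 ± 0.58 (adjusted p = 0.02). The highest PBS tumor for Lck, replicate 2, came close to the lowest ICB tumor, and Lck did not pass without PBS replicate 1 or PBS replicate 3. Of all genes tested, 37.8% were called in this comparison and 19% were called higher. The groups did not overlap for any of the 9 members, against 15.8% of genes that were higher without overlap. Other values moved in the same comparison. The sum of the mesothelial markers was 272 to 358 CPM in PBS and 54.6 to 217 CPM in ICB tumors, without overlap. This was Msln (mean 311 CPM in PBS and 109 CPM in ICB tumors), while Wt1 (0.112 and 0.929 CPM), Krt19 (0.198 and 0.637 CPM) and Lrrn4 (0.064 and 0.203 CPM) had low but higher means with ICB, and Upk3b was at or under 3 counts in every tumor. The mitochondrial share was 1.53% to 2.37% in PBS and 2.69% to 4.82% in ICB tumors, again without overlap. The sum of 4 plasmacytoid dendritic cell markers, most of it Bst2 (mean 127 CPM in PBS and 175 CPM in ICB tumors), was 116 to 164 CPM in PBS and 169 to 246 CPM in ICB tumors, without overlap too. Their part in the members' values was not tested.

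**Figure D2:**
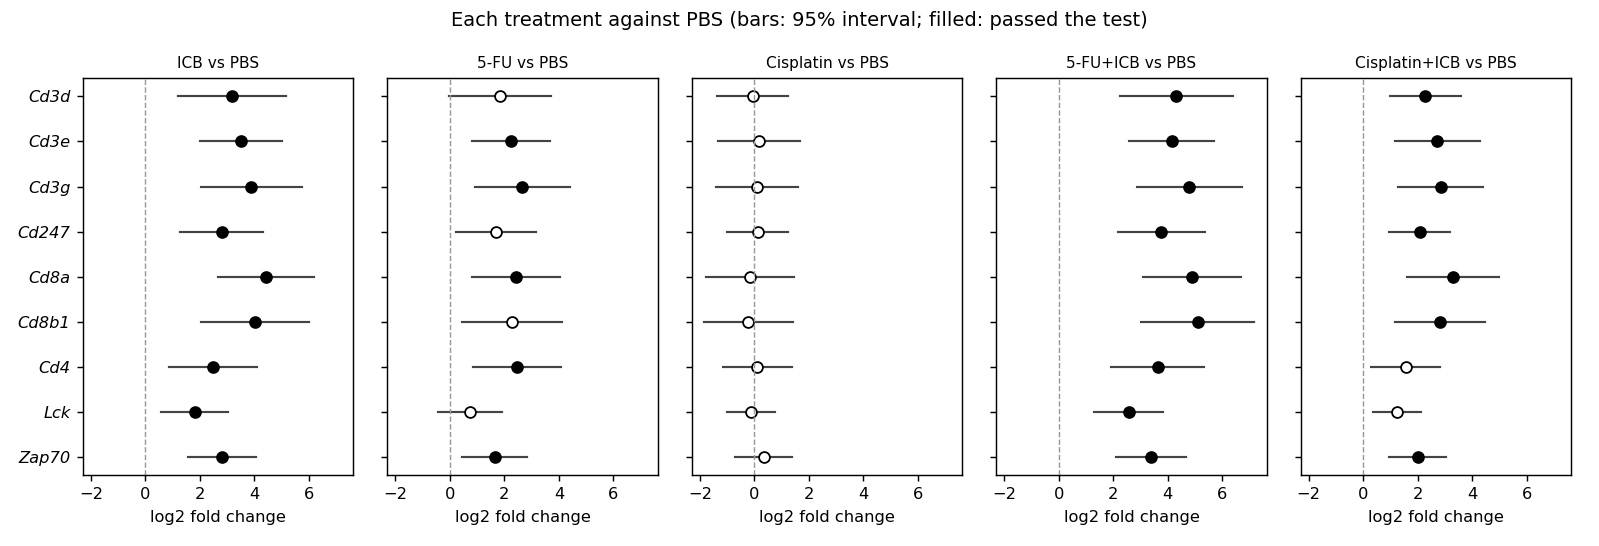
Log2 fold change of each member against PBS for the 5 treatments, with its 95% interval as a bar and a filled point where the test was passed. The intervals lie to the right of 0 for all 9 members under ICB and 5-FU+ICB, straddle 0 for all 9 under cisplatin, and lie to the right of 0 under 5-FU for all but Cd3d and Lck.

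5-FU against PBS gave smaller and less even differences. Cd3e, Cd3g, Cd8a, Cd4 and Zap70 rose, 5 of the 9 members, where 9.98% of all genes were called higher and 23% were called in either direction. A fit of all 28 tumors together called 0 of the 9 members, and 825 genes against 4115. Cd4 was at 21.2, 12.7, 105, 11.3 and 37.5 CPM in 5-FU tumors, all above the 4 PBS tumors, with a log2 fold change of 2.45 ± 0.77 (adjusted p = 0.0277, edgeR). Cd8a was at 9.64, 21.0, 76.6, 5.41 and 26.1 CPM, with 1 tumor among the PBS values, and a log2 fold change of 2.43 ± 0.77 (adjusted p = 0.0288). The coreceptor genes had nearly equal fold changes here. Cd3g rose by 2.66 ± 0.83 (adjusted p = 0.0278), Cd3e by 2.24 ± 0.68 (adjusted p = 0.025) and Zap70 by 1.64 ± 0.57 (adjusted p = 0.0421). Cd8b1 (2.29 ± 0.87, adjusted p = 0.06), Cd3d (1.84 ± 0.89, adjusted p = 0.128), Cd247 (1.70 ± 0.69, adjusted p = 0.0771) and Lck (0.73 ± 0.56, adjusted p = 0.338) did not pass. The groups did not overlap for 4 members, Cd3e, Cd3g, Cd8b1 and Cd4, against 9.27% of all genes. 5-FU replicate 3 was the highest tumor of the group for every member, and without it 0 members were called, where 5.94% of all genes were called higher, the log2 fold change of Cd8a being 1.59 (adjusted p = 0.101). The count was also 0 without PBS replicate 1 or PBS replicate 2 (3.43% and 3.73% of all genes called higher), 3 without PBS replicate 3 (10.5%), and 2 without PBS replicate 4 (8.66%) or 5-FU replicate 5 (5.35%). In 5-FU replicate 3 the B cell markers (110 CPM) and the lymph node markers (28.9 CPM) were the highest of the group too, as was the mitochondrial share (6.8%). In the group as a whole, the mesothelial sum was lower than in PBS without overlap (46.6 to 178 CPM against 272 to 358 CPM) through Msln (mean 108 CPM), with Wt1 (0.742 CPM), Krt19 (0.362 CPM) and Lrrn4 (0.0916 CPM) at higher means than in PBS. The mitochondrial share was higher without overlap (2.72% to 6.8%), and skeletal muscle markers led by Acta1 had a median of 1120 CPM (6.69 to 1410 CPM) against 132 CPM (91 to 166 CPM). The part of these in the result was not tested.

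Cisplatin against PBS gave no call among the members. Cd8a was at 8.19, 2.36, 2.18 and 5.89 CPM in the 4 cisplatin tumors, of which 1 was above the PBS tumors, 1 level with the highest of them and 2 below. Cd4 was at 11.0, 4.11, 5.00 and 9.92 CPM, on both sides of the PBS values. The log2 fold changes of the 9 members lay between -0.22 (Cd8b1) and 0.34 (Zap70), with standard errors from 0.42 to 0.77, and the interval for Cd8a ran from -1.77 to 1.45. By edgeR 0 of the 9 members had an unadjusted p-value under 0.05 and 0 were called, and DESeq2 called 0. Over all genes 0% were called by edgeR, 317 of 17819 had a p-value under 0.05 before adjustment, and 4 were called by DESeq2. For each member cisplatin replicates 1 and 4 were higher than replicates 2 and 3.

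5-FU+ICB against PBS showed the largest fold changes. All 9 members rose, from 2.57 ± 0.60 for Lck to 5.09 ± 0.99 for Cd8b1 on the log2 scale, where 21.9% of all genes were called higher and 40.7% in either direction. Cd8b1 was at 171, 6.51, 58.8, 70.0 and 322 CPM in the 5 tumors (adjusted p = 0.00129, edgeR). Cd8a was at 225, 11.4, 90.2, 126 and 304 CPM, a log2 fold change of 4.89 ± 0.86 (adjusted p = 0.000811). Replicate 5 was the highest and replicate 2 the lowest for both CD8 chains, and replicate 2 was still above every PBS tumor. Cd4 was at 90.1, 8.12, 79.4, 62.8 and 180 CPM, with replicate 2 inside the PBS range, and rose by 3.63 ± 0.81 (adjusted p = 0.00258). Lck was at 165, 22, 83.1, 93.2 and 266 CPM. The CD3 module rose by 4.31 ± 0.99 (Cd3d), 4.14 ± 0.74 (Cd3e), 4.79 ± 0.92 (Cd3g) and 3.76 ± 0.76 (Cd247), and Zap70 by 3.38 ± 0.61, with adjusted p-values from 0.000889 to 0.00301. The groups did not overlap for 6 members, against 10.9% of all genes, and Cd3d, Cd4 and Lck overlapped through replicate 2. The mesothelial sum was at 37.3 to 168 CPM, below all PBS tumors, again through Msln (mean 64.6 CPM), while Wt1 (1.54 CPM) and Lrrn4 (0.127 CPM) had higher means than in PBS. Krt19 was at 48.9 CPM in replicate 5 and between 0.093 and 1.86 CPM in the rest of the group, against 0.133 to 0.361 CPM in PBS. The mitochondrial share was 3.53% to 16.1% in 4 of the 5 tumors, all but replicate 2 (2.33%), and the plasmacytoid dendritic cell markers, again mostly Bst2, were at 198 to 318 CPM, above all PBS tumors. The part of these in the members' values was not tested. Without replicate 5, the tumor with the lymph node markers, all 9 members were called, where 18.8% of all genes were called higher, and the log2 fold change of Cd8a was 4.46 (adjusted p = 0.00157). Without replicate 2, all 9 were called, where 25.1% of all genes were called higher, and it was 5.19 (adjusted p = 8.93e-05).

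Cisplatin+ICB against PBS lay between. Cd3d, Cd3e, Cd3g, Cd247, Cd8a, Cd8b1 and Zap70 rose, 7 of the 9, where 4.7% of all genes were called higher and 6.1% in either direction. A fit of all 28 tumors together called 2 members and 807 genes, and a fit of these 2 groups alone called 0 members and 0 genes. Cd8a was at 2.81, 56.1, 7.54, 78.8 and 108 CPM, so that 3 tumors reached the ICB range or nearly so while replicate 1 was below and replicate 3 just above the PBS tumors. Its log2 fold change was 3.29 ± 0.80 (adjusted p = 0.0268, edgeR). Cd8b1 rose by 2.81 ± 0.79 (adjusted p = 0.0435) and Cd3g by 2.84 ± 0.73 (adjusted p = 0.0324). Cd4, at 2.92, 21.4, 9.87, 32.3 and 34.3 CPM, did not pass (1.55 ± 0.59, adjusted p = 0.122), nor did Lck (1.23 ± 0.41, adjusted p = 0.0806). In 4 of the 5 tumors, all but replicate 1, the mitochondrial share was 3.23% to 3.99%, above all PBS tumors. Msln was at 130 to 266 CPM in these 4, below all PBS tumors (271 to 358 CPM), and at 654 CPM in replicate 1. Wt1 (0.827 CPM), Krt19 (0.401 CPM) and Lrrn4 (0.211 CPM) had higher means than in PBS. The sum of 5 markers of conventional type 1 dendritic cells was 80.0 to 198 CPM in the group against 48.0 to 81.7 CPM in PBS. Most of it was Irf8 (mean 125 CPM against 46 CPM). Their part in the members' values was not tested. Only Cd247 had groups that did not overlap, against 3.43% of all genes. In the fits that left out 1 tumor, 9 members were called without replicate 1 (18.2% of all genes called higher), 8 without replicate 3 (6.48%), 2 without PBS replicate 2 (3.21%), and 0 without cisplatin+ICB replicate 2 (1.25%), 4 (1.33%) or 5 (1.78%) or without PBS replicate 1, 3 or 4 (0% each).

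In cisplatin+ICB replicate 1 the members came apart. Cd3e was at 1.80 CPM, Cd3g at 2.70 CPM, Cd8a at 2.81 CPM and Cd4 at 2.92 CPM, each below all 4 PBS tumors, as was Cd8b1 at 2.39 CPM. Cd3d was at 8.32 CPM and Lck at 39.6 CPM, each above all 4 PBS tumors. Trac was at 2.81 CPM and Trbc2, the constant segment of the beta chain, at 25.6 CPM in the same library. The sum of mesothelial tumor cell markers was 655 CPM in this library, and its part in these values was not tested. PBS replicate 2 was the highest tumor of its group for 7 of the 9 members, all but Cd8a and Cd4, with Cd3d at 5.66 CPM, Lck at 33.9 CPM, Cd3e at 4.64 CPM and Cd8b1 at 4.27 CPM.

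The combinations were then set against their parts. 5-FU+ICB had a higher mean CPM than ICB for all 9 members, with fitted log2 fold changes from 0.47 (Cd8a, interval -0.92 to 1.85) to 1.16 (Cd4, interval -0.25 to 2.56), but by edgeR 0 had an unadjusted p-value under 0.05, 0 were called, and by DESeq2 0 were called. For Cd8a the mean of the log2 CPM was lower in 5-FU+ICB (6.61) than in ICB (6.69). Without 5-FU+ICB replicate 5, the tumor with the lymph node markers, the fold changes shrank to between 0.04 (Cd8a) and 0.66 (Cd4), with Cd3d at 0.38, Cd8b1 at 0.35 and Zap70 at 0.16, and without replicate 2 they were 0.77 (Cd8a) to 1.45 (Cd3d and Cd4), with 0 called either way. Cisplatin+ICB had lower values than ICB for all 9, from -0.59 (Lck) to -1.21 (Cd8b1, interval -2.63 to 0.22), again with 0 under 0.05 unadjusted and 0 called by edgeR or DESeq2. Without cisplatin+ICB replicate 1 these were -0.45 (Cd3e and Cd247) to -0.87 (Cd8b1) and without replicate 3 -0.38 (Lck) to -0.93 (Cd8b1), with 0 called either way. Of all genes edgeR called 0.229% in the first of these comparisons and 0% in the second, and DESeq2 called 327 and 52 genes. The intervals leave room for differences of more than 1 log2 unit in one direction.

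Against the chemotherapy alone, both combinations were higher for all 9 members. In 5-FU+ICB relative to 5-FU the log2 fold changes ran from 1.18 (Cd4) to 2.80 (Cd8b1), 8 of the 9 had an unadjusted p-value under 0.05, and 0 were called by edgeR, the smallest adjusted p-value of a member being 0.146 (Cd8a), while DESeq2 called 7. Over all genes edgeR called 2 (0.0112%) and DESeq2 called 539. Without 5-FU replicate 3, the high tumor of its group, edgeR called 8 members and 3.58% of all genes, and Cd8a had a log2 fold change of 3.30 (adjusted p = 0.0374). Without 5-FU+ICB replicate 2, the low tumor of its group, it also called 8, and 10.9% of all genes. Cd4 was the member that stayed out in both, with adjusted p-values of 0.0744 and 0.0976. Without 5-FU+ICB replicate 5 it called 0 members and 0.0112% of all genes, Cd3d went from 2.46 to 1.70 and Cd4 from 1.18 to 0.69, and the adjusted p-values of the members ran from 0.385 to 0.819.

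Cisplatin+ICB relative to cisplatin gave log2 fold changes from 1.35 (Lck) to 3.45 (Cd8a). All 9 members had an unadjusted p-value under 0.05, 0 were called by edgeR with a smallest adjusted p-value of 0.0791 (Cd8a), and DESeq2 called 8. Over all genes DESeq2 called 783 and edgeR 0%. Without cisplatin+ICB replicate 1 edgeR called all 9 members and 11.9% of all genes, and without replicate 3 it called 8 and 3.04%.

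**Figure D3:**
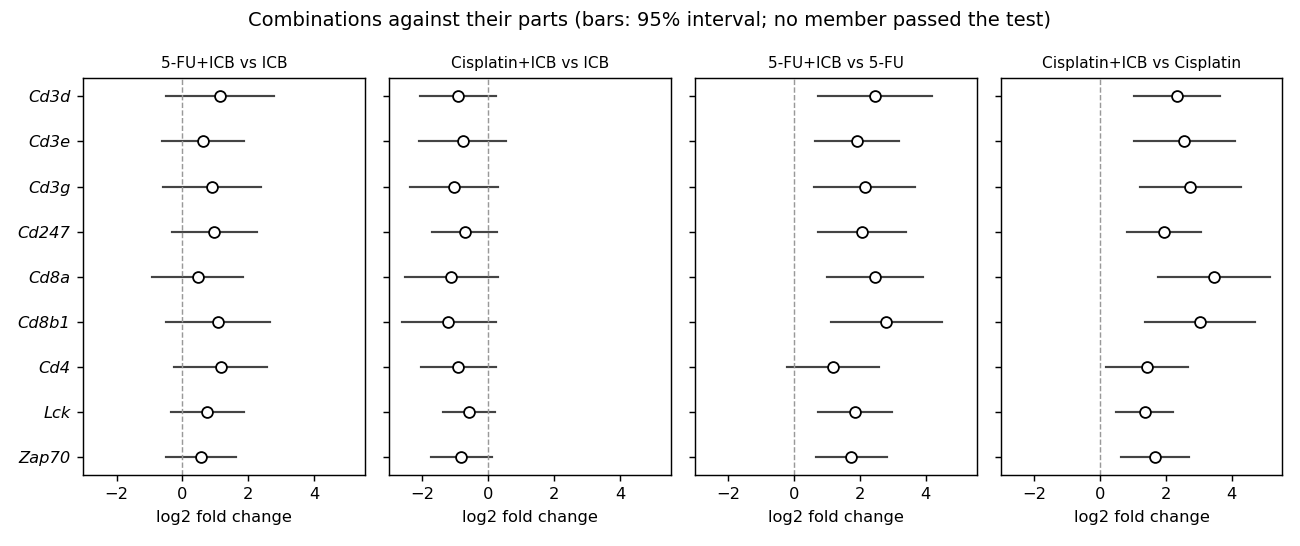
Log2 fold change of each member, with its 95% interval as a bar, for the combinations against ICB and against the chemotherapy alone. All points are open, since no member passed the test. Against chemotherapy all points lie to the right of 0, and Cd4 has the smallest value in 5-FU+ICB against 5-FU (1.18). Against ICB the intervals of all 9 members include 0.

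Whether a chemotherapy and ICB together differed from the sum of their log2 effects was tested with an interaction term. The estimates for 5-FU were negative for 8 of the 9 members, down to -1.96 ± 0.98 for Cd8a (adjusted p = 0.233, edgeR), and 0.03 ± 0.76 for Lck. For cisplatin all 9 were negative, from -0.47 ± 0.57 (Lck) to -1.16 ± 0.95 (Cd3g). In both, 0 members had an unadjusted p-value under 0.05 and 0 were called by edgeR or by DESeq2, where edgeR called 0.0893% of all genes for 5-FU and 0% for cisplatin. DESeq2 called 1542 genes for 5-FU and 1 for cisplatin. The sign of the Lck estimate for 5-FU changed with the scaling, being -0.02 with DESeq2's size factors. Without 5-FU replicate 3 the 8 negative estimates for 5-FU moved toward or past 0, to 0.34 for Cd3d (from -0.71), -0.08 for Cd247 (from -0.73), -0.24 for Cd8b1 (from -1.21), -0.43 for Cd4 (from -1.30) and -1.12 for Cd8a. Without 5-FU+ICB replicate 5 all 9 were negative, from -0.45 (Lck) to -2.39 (Cd8a), and without its replicate 2 they ran from -1.66 (Cd8a) to 0.31 (Lck). For cisplatin they ran from -0.36 to -0.91 without cisplatin+ICB replicate 1 and from -0.25 to -0.94 without replicate 3. In each of these 5 fits edgeR called 0 members and 0 genes, against 16 genes for 5-FU and 0 for cisplatin with all tumors. Some other fits that left out 1 tumor called more genes for 5-FU, each with 0 members. They were 1698 genes without PBS replicate 3, 1017 without PBS replicate 4 and 950 without 5-FU+ICB replicate 4.

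The chemotherapies differed less clearly from each other. Relative to cisplatin, 5-FU tumors had higher values of all 9 members, from 0.87 (Lck) to 2.57 (Cd8a) on the log2 scale. An unadjusted p-value under 0.05 was found for 8 of them, edgeR called 0 (smallest adjusted p = 0.15, Cd4) and DESeq2 called 4. Cd4 alone did not overlap, its lowest 5-FU tumor being at 11.3 CPM and its highest cisplatin tumor at 11.0 CPM, against 5.29% of all genes higher without overlap. Over all genes DESeq2 called 663 and edgeR 67 (0.362%). Without 5-FU replicate 3 the differences shrank to between 0.41 (Lck) and 1.74 (Cd8a), with Cd3d going from 1.92 to 0.88, Cd3g from 2.53 to 1.56 and Cd247 from 1.57 to 0.93, 0 members were called and the genes called went from 67 to 13. Between the combinations, 5-FU+ICB was higher by 1.34 (Lck) to 2.26 (Cd8b1), with 7 of 9 members under 0.05 unadjusted, 0 called by edgeR and 2 by DESeq2. Over all genes DESeq2 called 1620 and edgeR 55 (0.297%). Without 5-FU+ICB replicate 2 edgeR called 7 members and 11.6% of all genes. It called 0 members without 5-FU+ICB replicate 5, where Cd3d went from 2.04 to 1.29 and the genes called from 55 to 3, and 0 without cisplatin+ICB replicate 1 (11 genes) or replicate 3 (20 genes).

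The balance of the coreceptors was followed through the log2 ratio of Cd8a to Cd4 within each tumor. It was -0.85, -0.09, 0.01 and -0.66 in PBS tumors and 1.96, 0.99, 1.35, 2.33 and 1.73 in ICB tumors. Every ICB tumor was thus above every PBS tumor. The means were -0.40 ± 0.42 and 1.67 ± 0.52, a difference of 2.07 (two-sided exact permutation p = 0.00794, the smallest that 5 tumors against 4 can give, adjusted p = 0.116 over 22 ratio tests). The 5-FU tumors were at -1.13, 0.72, -0.46, -1.06 and -0.52, a mean of -0.49 ± 0.74, which differed from PBS by -0.09 (exact p = 0.833, adjusted p = 0.873), and the cisplatin tumors had a mean of -0.78 ± 0.31. The 5-FU+ICB tumors were at 1.32, 0.49, 0.18, 1.00 and 0.75, a mean of 0.75 ± 0.44, and all 5 were above PBS (difference 1.14, exact p = 0.0159, adjusted p = 0.116).

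Compared to ICB, the ratio in 5-FU+ICB tumors was lower by a difference of -0.93 (exact permutation p = 0.0238, adjusted p = 0.116), and compared to 5-FU it was higher by 1.24 (exact p = 0.0238, adjusted p = 0.116). Cisplatin+ICB tumors were at -0.05, 1.39, -0.38, 1.28 and 1.66. The 2 tumors with few TCR complex transcripts, replicates 1 and 3, were near PBS and the other 3 were within the ICB range. All 5 were above the cisplatin tumors (difference 1.56, exact p = 0.0317, adjusted p = 0.116). None of the 22 ratio tests passed the adjustment. At its smallest possible exact permutation p-value (0.00794, or 0.0286 for cisplatin against PBS), a single test could not have passed alone. Not passing therefore decides nothing about a single ratio. Leaving out 5-FU+ICB replicate 5 left that group's difference from PBS at 1.14. These comparisons share their PBS, ICB and chemotherapy tumors and are not independent of each other.

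The ratio of Cd8a to Cd8b1, the alpha to the beta chain, varied less. It was 0.46 ± 0.16 in PBS, 1.02 ± 0.33 in ICB, 0.61 ± 0.22 in 5-FU, 0.50 ± 0.34 in cisplatin, 0.52 ± 0.38 in 5-FU+ICB and 0.84 ± 0.38 in cisplatin+ICB tumors. ICB exceeded PBS by 0.56 (exact permutation p = 0.0317, adjusted p = 0.116), with ICB replicate 3 (0.51) among the PBS values. In 5-FU+ICB replicate 5 the ratio was -0.08, the lowest of the 28 tumors. The summed level of 5 markers of conventional type 1 dendritic cells, some of which carry CD8 alpha, was 48.0 to 81.7 CPM in PBS and 174 to 341 CPM in ICB tumors. Most of the sum was Irf8 (mean 46 CPM in PBS and 225 CPM in ICB tumors). The others were Xcr1 (3.11 and 8.83 CPM), Clec9a (1.37 and 12.7 CPM), Itgae (9.14 and 11.6 CPM) and Batf3 (1.19 and 7.05 CPM). The part of these markers in the ratio was not tested.

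**Figure D4:**
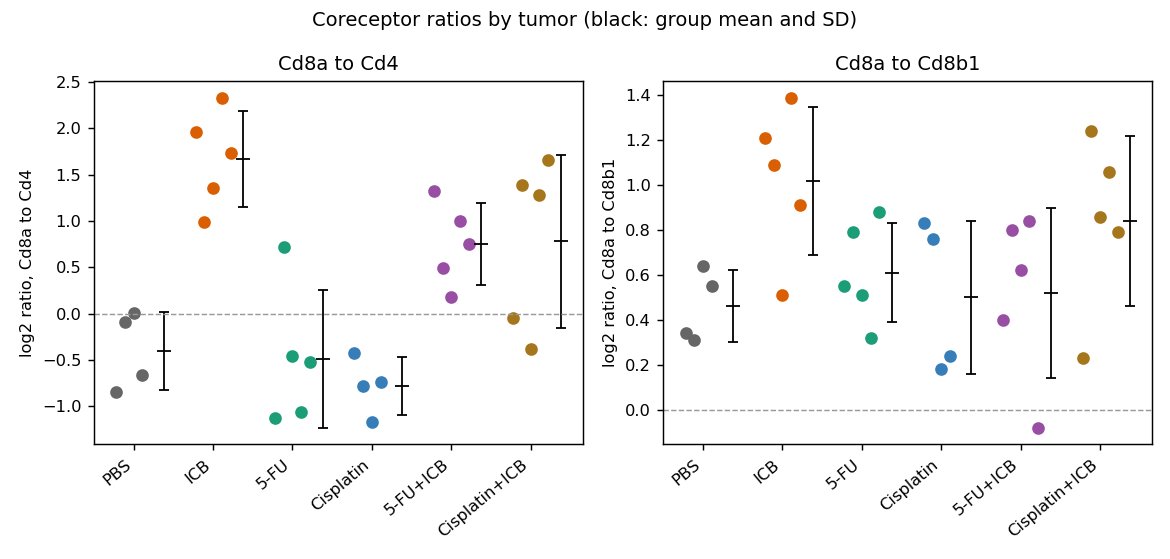
Log2 ratios of Cd8a to Cd4 and of Cd8a to Cd8b1 in each tumor by group, with the group mean and SD in black. For Cd8a to Cd4 the PBS tumors lie between -0.85 and 0.01 and the ICB tumors between 0.99 and 2.33, and for Cd8a to Cd8b1 5-FU+ICB replicate 5 is the only tumor below 0.

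The members moved together from tumor to tumor, with Lck the furthest from the rest. The mean log2 CPM of the 9 members in a tumor ranged from 1.37 in cisplatin replicate 2 to 7.43 in 5-FU+ICB replicate 5. In 5-FU+ICB replicate 2 it was 2.88 and in cisplatin+ICB replicates 1 and 3 it was 2.15 and 2.75, near the PBS tumors, which lay between 2.06 and 2.61. In 5-FU replicate 3 it was 5.66, above 3 of the 5 ICB tumors. The SD over the 28 tumors of a member's difference from the mean of the other 8, on the log2 scale, was 0.29 for Cd247, 0.35 for Cd3e, 0.40 for Cd3g, 0.43 for Zap70, 0.51 for Cd3d, 0.53 for Cd8b1, 0.64 for Cd4, 0.70 for Cd8a and 0.78 for Lck. Lck was 2.32 ± 0.43 above the other 8 in PBS and 2.28 ± 0.40 in cisplatin tumors, and 0.91 ± 0.24 in ICB and 0.95 ± 0.47 in 5-FU+ICB tumors. Cd8a went the other way, from 0.13 ± 0.33 in PBS to 1.52 ± 0.21 in ICB tumors, while Cd4 went from 0.58 ± 0.50 in PBS to -0.36 ± 0.38 in ICB and was at 0.99 ± 0.52 in 5-FU tumors. These offsets are descriptions and were not tested.

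The 10 other genes whose log2 CPM stayed closest to the mean of the members, among 14406 with a mean of at least 1 CPM, were Cd96 and Trac (SD of the difference 0.25 over 28 tumors), Nkg7 (0.26), Tbx21 (0.33), Camk4 and Gimap1 (0.36), Slamf1 (0.37), Ubash3a (0.38), Cd6 (0.39) and Cd28 (0.40). The median of all those genes was 1.84. Trac encodes the TCR alpha chain's constant segment, Nkg7 a granule protein of cytotoxic lymphocytes, and Tbx21 the transcription factor T-bet. The 28 tumors share their treatment groups and the members their scaling, so the SDs are given as descriptions.

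Other leukocyte genes moved as well. Ptprc (CD45), carried by all leukocytes, was between 75.0 and 105 CPM in PBS and between 245 and 443 CPM in ICB tumors, a log2 fold change of 2.00 (adjusted p = 0.00231, edgeR). Relative to Ptprc, the mean of the members on the log2 scale was -4.24 ± 0.16 in PBS, -3.14 ± 0.43 in ICB, -3.63 ± 0.56 in 5-FU, -4.60 ± 0.28 in cisplatin, -2.70 ± 0.73 in 5-FU+ICB and -3.75 ± 0.78 in cisplatin+ICB tumors. All 5 ICB tumors were above all 4 PBS tumors on this measure, and 5-FU+ICB replicate 2 (-3.84) was the only tumor of its group below the ICB mean. The sum of 6 macrophage markers led by C1qa was 1350 to 2060 CPM in PBS, 2800 to 7720 CPM in ICB and 1460 to 6600 CPM in 5-FU+ICB tumors. The sum of 6 NK cell markers led by Ncr1 was 9.94 to 29.6 CPM in PBS and 21.0 to 44.8 CPM in ICB tumors, with Klra8 at no more than 1 count in any tumor. Of the 4 NK markers tested, 1 was called, where 37.8% of all genes were called and 19% were called higher with ICB. That count was near this background. The part of these cells in the members' levels was not tested.

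**Figure D5:**
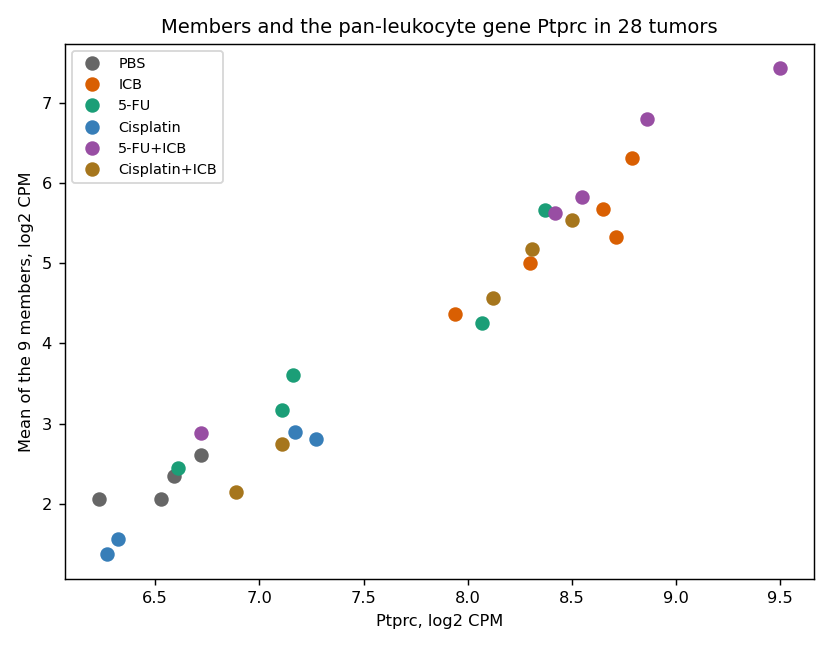
Mean log2 CPM of the 9 members against the log2 CPM of Ptprc, a point for each of the 28 tumors, coloured by group. The 5-FU+ICB group spans from 2.88 to 7.43 on the members' axis, and the cisplatin tumors, with a mean of 6.76 for Ptprc and 2.16 for the members, lie beside the PBS tumors, with means of 6.52 and 2.27.

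Around the receptor, lists of other pathway genes were counted in the same fits. Of 7 constant segments of the TCR chains, 5 rose with ICB, 1 with 5-FU, 6 with 5-FU+ICB and 3 with cisplatin+ICB, and 0 fell. In these comparisons 19%, 9.98%, 21.9% and 4.7% of all genes were called higher, so that the count with 5-FU was close to this background. Their medians were 2.25, 1.06, 2.73 and 1.92 on the log2 scale, where the median over all genes tested was between -0.04 and 0.03. Trac rose in each of the 4 comparisons, by 3.40 (adjusted p = 0.00308), 2.35 (adjusted p = 0.0306), 4.32 (adjusted p = 0.00117) and 2.45 (adjusted p = 0.0353). Trbc2 rose by 2.80 with ICB, 4.2 with 5-FU+ICB and 2.07 with cisplatin+ICB. In cisplatin+ICB against PBS, 0 genes were called without PBS replicate 1, 3 or 4, and 0 by a fit of these 2 groups alone. All list calls with cisplatin+ICB, here and in the lists that follow, were therefore lost in those fits. Trbc1 and Trbc2 are near-identical, as are some of the gamma chain segments, so the split of counts within these pairs is uncertain.

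Among 14 kinases and adaptors next to the receptor, 10 rose with ICB, 5 with 5-FU, 12 with 5-FU+ICB and 4 with cisplatin+ICB, and 0 fell, where 19%, 9.98%, 21.9% and 4.7% of all genes were called higher. Themis, which acts in TCR signalling during T cell development, had the largest change of the list in each, with log2 fold changes of 4.51, 2.48, 5.42 and 3.79. The adaptor Sh2d2a rose by 3.18, 2.34, 4.02 and 2.62. Of 13 inhibitors of the signal, 11 rose with ICB, 5 with 5-FU, 11 with 5-FU+ICB and 6 with cisplatin+ICB. Ubash3a, a phosphatase family member that dampens TCR signalling, rose by 3.40, 1.94, 3.99 and 2.42, and Cd6 by 3.15, 2.26, 3.89 and 2.32. Dok1 fell by 0.88 with 5-FU (adjusted p = 0.0149), the only inhibitor called lower, named after its value was seen.

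Of 12 genes further downstream, 7 rose with ICB, 4 with 5-FU, 7 with 5-FU+ICB and 1 with cisplatin+ICB, the last of these close to the 4.7% of all genes called higher there (19%, 9.98% and 21.9% in the others). Their medians of 0.79, 0.49, 0.80 and 0.35 were below those of the lists nearer to the receptor. Rasgrp1, which activates RAS, rose by 2.86 with ICB and Nfatc2, a calcium-regulated transcription factor, by 2.74, and Prkcq, the T cell protein kinase C theta, rose by 1.87 with cisplatin+ICB. The calcineurin subunit gene Ppp3cb, also named after its values were seen, fell by 0.55 with ICB (adjusted p = 0.00441) and by 0.53 with 5-FU+ICB (adjusted p = 0.00572). All 8 T cell surface partners rose with ICB and with 5-FU+ICB, 4 with 5-FU and 2 with cisplatin+ICB. Cd40lg, the ligand by which helper T cells activate other cells, had a mean of 0.062 CPM in PBS, under the floor of detection, and of 0.888 CPM in ICB tumors. It could pass the filter only through groups where it was high, so its rise was not independent of the filter. Cd28, the costimulatory receptor, rose by 3.73, 2.89, 4.68 and 2.82 in the 4 treatments, and Icos by 2.72, 2.53, 3.66 and 1.85. In cisplatin against PBS, 0 genes of these 5 lists were called by edgeR and 0 had an unadjusted p-value under 0.05.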

How the data were processed

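Bulk RNAseq was measured in 28 tumors, with 100-base reads. The authors assigned reads to GRCm38/mm10 transcripts with kallisto (0.46.0; base calls by bcl2fastq 2.20.0.422), and deposited estimated counts per gene from tximport, not normalized, in 2 matrices. The 9 tumors of the PBS and ICB groups are in both, with identical values. Of the values, 23.7% were not whole, and all were rounded. Pseudoalignment shares reads between similar transcripts, so near-identical genes may exchange counts. Groups and replicate numbers came from the sample labels, which name no library batch. The labels give 1 sample per tumor, and p-values measure the spread between tumors.

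After filterByExpr and TMM scaling, each matrix was fitted with edgeR's quasi-likelihood test (edgeR 4.0.16, R 4.3.3) with all its groups and no covariate. This tested 17916 genes in the 5-FU matrix, 17819 in the cisplatin matrix and 18521 in the joined groups used to compare the chemotherapies or the combinations. All 9 members passed the filters, and p-values were adjusted over all genes tested. DESeq2 1.42.0 served as an alternative. The procedure was tested on simulated data. Levels are CPM, and log2 CPM has a prior count of 2. Ratios were compared by two-sided exact permutation tests. The total count per tumor sets the precision, and its floor of 3 counts covers counting error only. Coordinates come from GENCODE M21, transcript lengths from the same annotation and promoters from RefSeq.

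The members, lists and tests were chosen with earlier results of these data known. Genes named besides the members were the called genes with the largest changes of each pathway list, up to 3 per comparison, and the 10 closest to the members' mean, unless marked, and a gene this rule picked is not reported here, though it stays in its list's counts. Alternatives were DESeq2, its size factors, other filters, the replicate number as a block, other groups in the model, a prior count of 0.5, the median in place of the mean, and each tumor left out in turn. The flow cytometry and survival data were not analysed here.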

Additional observations from a re-analysis of the deposited data

Results flagged for a closer look

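In the 4 PBS tumors the log2 CPM of Cd3d was 2.52 in replicate 2 and at most 1.18 in the others, and the gap took up 0.847 of the group's range. It was the only one of 66 groups of values with a sample this far from the others. Chance gives about 1 in 20 such groups, so a single one is no more than chance would give. The gene's log2 fold change with ICB was 3.17 with this tumor and 3.74 without it (edgeR). Cd3e (4.64 CPM) and Cd3g (5.05 CPM) were also the highest of the group in this tumor, nearer to the rest. Lck (33.9 CPM, at most 20.2 CPM in the others) and Trbc2 (14.1 CPM, at most 7.3 CPM) were highest there too, further from the rest.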

How the results depend on the processing

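The counts of called members in ICB and 5-FU+ICB tumors against PBS, 9 and 9, were 8 to 9 and 9 under every setting run. Of 2160 log2 fold changes of members under alternatives, 1954 kept their direction and side of the threshold, 102 lost the call, 71 gained it and 33 changed sign. DESeq2 called 7 members in 5-FU+ICB against 5-FU, 8 in cisplatin+ICB against cisplatin, 4 in 5-FU against cisplatin and 2 between the combinations, where edgeR called 0. In 5-FU against PBS (5 members) and cisplatin+ICB against PBS (7), the fit of all 28 tumors called 0 and 2, and the fit of the compared groups alone called 0 in the second. The cause was not tested. Leaving out 1 tumor gave 0 to 6 called members in 5-FU against PBS, 0 to 9 in cisplatin+ICB against PBS, 0 to 8 in 5-FU+ICB against 5-FU, 0 to 9 in cisplatin+ICB against cisplatin and 0 to 7 between the combinations.

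With the replicate number as a block, the members called were 0 in 5-FU against PBS and 0 in cisplatin+ICB against PBS, the interaction of 5-FU with ICB was 0.05 for Cd3d, and the counts of the other comparisons did not move. The numbers do not pair the tumors: of 48 same-numbered pairs 15 had deviations correlated over 0.1 (r from -0.63 to 0.66), and 0 comparisons had all pairs over 0.1. Signs changed among small estimates. The interaction of 5-FU with ICB for Lck (0.03) was -0.03 with DESeq2, -0.02 with its size factors, -0.14 with no filter and -0.02 with at least 10 counts in every tumor, and ran from -0.45 to 0.49 without 1 tumor, while that of Cd3d ran from -1.47 to 0.34. In cisplatin against PBS, leaving out 1 tumor gave -0.63 to 0.46 for Cd3d, -0.22 to 0.45 for Cd3e, -0.22 to 0.32 for Cd3g, -0.15 to 0.32 for Cd247, -0.58 to 0.07 for Cd8a, -0.53 to 0.02 for Cd8b1, -0.13 to 0.31 for Cd4 and -0.52 to 0.18 for Lck.

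Small differences of the coreceptor ratios changed sign too. Without 1 tumor, Cd8a to Cd4 ranged from -0.40 to 0.07 in 5-FU against PBS, from -0.01 to 0.45 in 5-FU against cisplatin and from -0.32 to 0.19 between the combinations, and Cd8a to Cd8b1 from -0.07 to 0.15 in cisplatin against PBS, -0.03 to 0.20 in 5-FU+ICB against PBS, -0.18 to 0.05 in 5-FU+ICB against 5-FU (0.07 with medians) and 0 to 0.22 in 5-FU against cisplatin.

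Over all genes, DESeq2 against edgeR called 2156 against 1087 in cisplatin+ICB against PBS, 327 against 41 in 5-FU+ICB against ICB, 539 against 2 in 5-FU+ICB against 5-FU, 783 against 0 in cisplatin+ICB against cisplatin, 663 against 67 in 5-FU against cisplatin, 1620 against 55 between the combinations, 1542 against 16 for the interaction of 5-FU with ICB, 1 against 0 for that of cisplatin, 52 against 0 in cisplatin+ICB against ICB and 4 against 0 in cisplatin against PBS. The fit of all 28 tumors called 825 against 4115 in 5-FU against PBS and 27 against 0 in cisplatin+ICB against cisplatin. The block called 95 against 1087 in cisplatin+ICB against PBS, 8 against 41 in 5-FU+ICB against ICB and 5 against 67 in 5-FU against cisplatin. The compared groups alone gave 0 against 1087, 0 against 41 and 943 against 67 in the same 3 comparisons, and 0 against 55 between the combinations. No filter on low counts gave 2469 against 4115 in 5-FU against PBS, and 624 against 1087, 17 against 41 and 25 against 67 in those 3, while a minimum of 10 counts gave 23 against 41 in the second and 48 against 16 for the interaction of 5-FU. The block and the fit of all 28 tumors each called 0 genes in 5-FU+ICB against 5-FU (2) and for the interaction of 5-FU (16), and in the first of these the compared groups alone and DESeq2's size factors called 0 and no filter 1. The number of tumors a group, 4 or 5, limits the precision.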
